A study of Mus musculus with 6 samples.

Results

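The genes described are 37 genes of glycolysis and of the response to low oxygen, listed by symbol: glucose carriers, the enzymes of each glycolytic step, the enzymes and carriers of lactate and pyruvate, and targets of the hypoxia-inducible factors. A gene was included where a probe set was annotated to its symbol alone, and the probe set with the highest mean signal over the 6 arrays stood for it. This found 33 of the 37, among 18193 genes on the array. Gpi1, Gapdh, Eno1 and Bnip3l had no such probe set and have no value here. All 33 also passed the filter on dim probe sets, a mean signal above 20.1, which kept 14185 genes.

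The cells were mouse embryonic stem cells, all derived from ES-E14TG2a with the genetic background 129P2, kept for 2 days in N2B27, a defined serum-free medium for neural differentiation. Every line carried an inducible hairpin against Geminin (Gmnn), a protein that limits DNA replication origins to a single firing per cycle. In each of 3 experiments a culture with 500 ng of doxycycline (Dox, amount as the labels write it), called GemKD, stood beside an uninduced culture of the same line without Dox. The hairpin was shRNAmir #11 in experiments 1 and 3, while experiment 2 was run on another line that carries shRNAmir #9. The labels call the tissue neurectoderm derived from the stem cells. Each culture gave 1 Affymetrix Mouse Genome 430 2.0 array, so there were 3 arrays per group and none from a line without a hairpin treated with Dox. Dox and knockdown therefore cannot be told apart. Gmnn fell to 27.6%, 48.0% and 36.7% of its control signal in experiments 1, 2 and 3.

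Glycolysis turns glucose into pyruvate, and lactate dehydrogenase turns pyruvate into lactate. When oxygen is short, the prolyl hydroxylases of the Egln family no longer mark the alpha subunits of the hypoxia-inducible factors for destruction, and these factors then bind hypoxia response elements and raise genes of glucose uptake, glycolysis, iron and vessel supply. Pluripotent cells are known for high glycolysis, and the exit from naive pluripotency towards the epiblast is known to change the balance between glycolysis and respiration.

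The members were compared first between experiments, because the arrays of experiment 3 lay apart from those of experiments 1 and 2 over the whole array. A gene was counted as apart when both arrays of experiment 3 lay on the same side of all 4 other arrays and the mean log2 values (log2 of the signal plus 16) differed by at least 1.5-fold. There is 1 experiment on one side, so this is a description with no test. Slc2a3, P4ha1, Vegfa, Egln3 and Pfkp were lower in experiment 3 by this rule and Pfkfb3 was higher. These were 5 of 33 members (15.2%) on the lower side, where the rule counted 6.19% of all genes, and 1 of 33 (3.03%) on the higher side, against 2.83%. In both directions together it was 6 members (18.2%) against 9.02% of all genes, and 5 of the 26 members brighter than the median gene against 6.84% of such genes. The median difference was -0.01 over the members and -0.04 over all genes, and the median size of the difference was 0.23 and 0.19. Without a fold limit, 24 of 33 members (72.7%) had both arrays of experiment 3 outside the other 4, 16 below and 8 above, against 50.7% of all genes (31% below and 19.7% above). A limma contrast of experiment 3 with the others, whose error is the spread between the arms and not between experiments, called 18 members and 34% of all genes.

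The same rule was applied to pairs of experiments. Between experiments 1 and 2, which used different lines, 0 members were apart, against 0.684% of all genes, a share at which few members could be counted in any case. Between experiments 3 and 1, which share shRNAmir #11, 6 members were apart (9.91% of all genes), and between experiments 3 and 2 there were 5 (9.65%). These comparisons share arrays and are given side by side. Of the 33 members, 6 lay within 0.1 of experiments 1 and 2 on the log2 scale, as the plot of the members on each array shows.

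**Figure D1:**
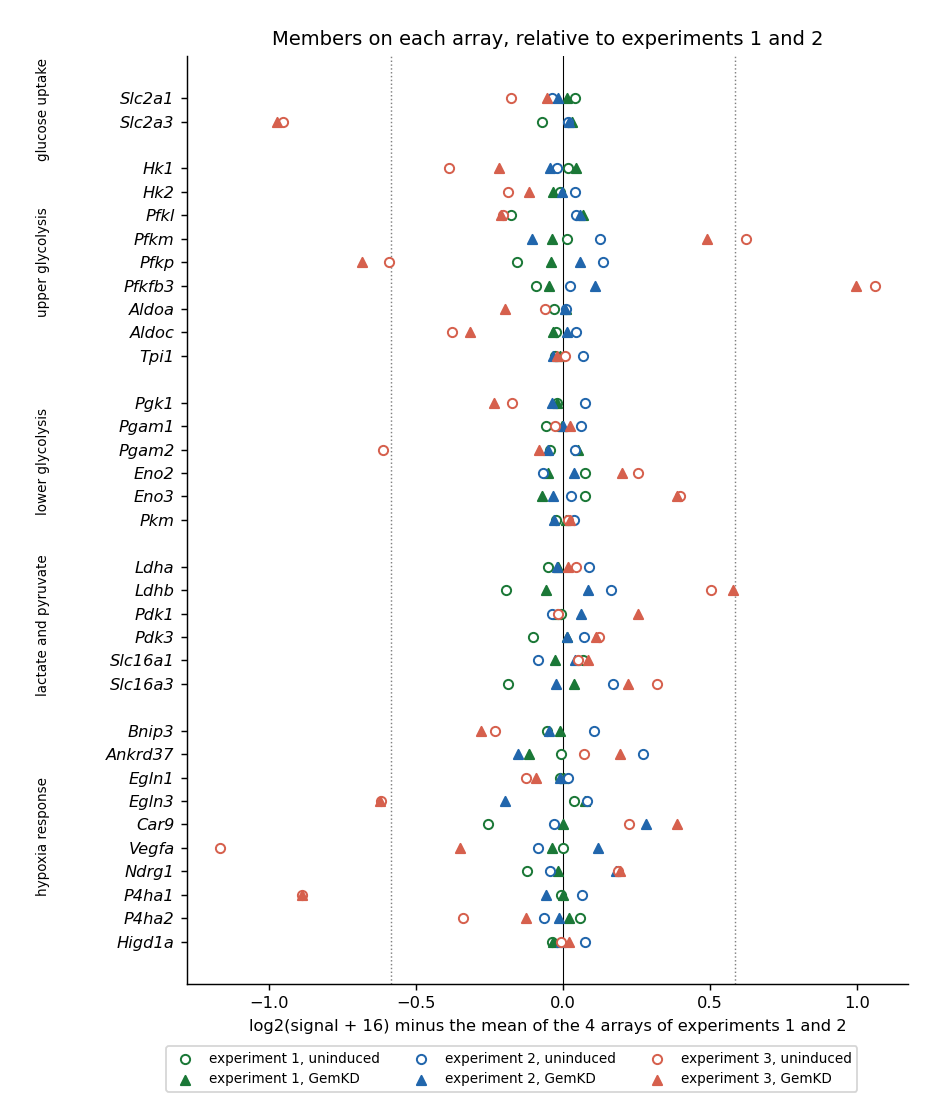
Each member's log2(signal + 16) on the 6 arrays (x axis, log2 units) minus its mean over the 4 arrays of experiments 1 and 2, by role; colours are experiments, open circles uninduced, filled triangles GemKD, dotted lines 1.5-fold. The red symbols of experiment 3 lie far to the left for Slc2a3 and P4ha1 and to the right for Pfkfb3, while those of Tpi1, Pgam1, Pkm, Ldha and Higd1a lie among the others.

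Promoter sequences are shown for the members that differed most in experiment 3 and had an entry in the RefSeq promoter table of GRCm38.p6, with Pgk1 and Ldha, well-known hypoxia-inducible genes that did not pass the limit. Each is the 250 bases before the most upstream start, 5′ to 3′ on the gene's strand, with capitals on ACGTG, a core of the hypoxia response element, searched on both strands. A palindrome of this core, CACGTG, counts once per strand and is also an E-box.
P4ha1 (chr10:59323046-59323295, plus strand): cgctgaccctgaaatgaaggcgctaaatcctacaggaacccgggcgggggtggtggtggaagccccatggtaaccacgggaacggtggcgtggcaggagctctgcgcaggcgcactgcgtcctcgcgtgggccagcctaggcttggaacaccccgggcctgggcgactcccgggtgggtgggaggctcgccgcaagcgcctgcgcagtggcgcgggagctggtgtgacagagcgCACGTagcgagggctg
Egln3 (chr12:54203875-54204124, minus strand): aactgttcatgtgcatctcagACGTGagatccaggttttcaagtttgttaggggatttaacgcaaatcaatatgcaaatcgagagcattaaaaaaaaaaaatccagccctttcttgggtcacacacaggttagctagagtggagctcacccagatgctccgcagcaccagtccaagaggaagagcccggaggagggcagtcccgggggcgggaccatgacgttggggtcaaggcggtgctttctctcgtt
Vegfa (chr17:46032378-46032627, minus strand): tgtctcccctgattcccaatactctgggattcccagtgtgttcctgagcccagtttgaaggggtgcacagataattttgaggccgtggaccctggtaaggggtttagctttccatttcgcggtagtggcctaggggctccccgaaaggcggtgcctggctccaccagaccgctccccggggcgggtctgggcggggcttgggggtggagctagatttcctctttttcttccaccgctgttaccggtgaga
Pfkp (chr13:6648772-6649021, minus strand): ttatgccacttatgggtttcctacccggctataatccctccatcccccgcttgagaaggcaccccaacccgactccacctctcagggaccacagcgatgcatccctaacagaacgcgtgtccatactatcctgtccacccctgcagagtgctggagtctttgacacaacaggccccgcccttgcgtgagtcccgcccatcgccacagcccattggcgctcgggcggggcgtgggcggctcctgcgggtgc
Pfkfb3 (chr2:11553930-11554179, minus strand): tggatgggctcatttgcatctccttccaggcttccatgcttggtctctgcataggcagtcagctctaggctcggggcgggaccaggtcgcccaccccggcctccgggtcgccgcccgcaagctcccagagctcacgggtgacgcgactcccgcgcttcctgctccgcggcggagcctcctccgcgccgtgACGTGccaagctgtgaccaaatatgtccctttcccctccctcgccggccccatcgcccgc
Pgk1 (chrX:106186850-106187099, plus strand): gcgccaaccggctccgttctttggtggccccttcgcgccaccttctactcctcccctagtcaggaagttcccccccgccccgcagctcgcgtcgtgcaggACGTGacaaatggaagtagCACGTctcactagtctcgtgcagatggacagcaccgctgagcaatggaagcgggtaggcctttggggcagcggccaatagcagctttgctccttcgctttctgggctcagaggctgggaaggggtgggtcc
Ldha (chr7:46845554-46845803, plus strand): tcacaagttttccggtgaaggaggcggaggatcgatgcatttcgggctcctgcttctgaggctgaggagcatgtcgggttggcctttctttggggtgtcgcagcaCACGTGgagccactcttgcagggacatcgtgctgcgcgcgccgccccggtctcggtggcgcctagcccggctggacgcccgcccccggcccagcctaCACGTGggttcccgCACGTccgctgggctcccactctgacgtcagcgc

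The match begins 16 bases before the start in P4ha1, 229 bases before it in Egln3 and 60 in Pfkfb3, and this window of Vegfa and of Pfkp held none. Pfkp held 3 matches, and P4ha1 held 2, to the related core GCGTG on either strand, which is not in capitals. GCGTG was common, in 51.6% of the windows of members and 43.4% of those of tested genes with an entry. Of ACGTG, Ldha held 5 matches, counting both strands of each palindrome, and Pgk1 held 2. Over the 31 members with an entry (Slc2a3 and Ndrg1 are the others), 17 windows (54.8%) held ACGTG, against 21.2% of 11409 tested genes with an entry and 16.5% of all 27025 genes in the table. Among the 4 lower members it was 2, and among the 26 members that were not apart it was 14 (53.8%). Many members were listed because they are known targets of the hypoxia-inducible factors, so the share over the members is a description of the list.

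Of the glucose carriers, Slc2a3 (GLUT3) carried the clearest difference and Slc2a1 (GLUT1) a small one. Slc2a3 had signals of 10527 (uninduced) and 11308 (GemKD) in experiment 1, 11202 and 11226 in experiment 2, and 5708 and 5639 in experiment 3. Experiment 3 stood at 51.3% of the mean of the other 4 arrays, 11070 ± 361.8 (SD, n = 4), a log2 difference of -0.96 or 1.95-fold. The largest difference between the arms of any experiment was 0.10. Slc2a1 ran from 8582 to 9341 in experiment 3 and from 9448 to 9974 in the others (log2 -0.11), so that its arrays did not overlap either, at a difference smaller than the 0.12 between the arms of experiment 3.

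Slc2a3 had 3 further probe sets, and all were lower in experiment 3 by more than the brightest. The second brightest had a log2 difference of -1.23. The third had 2006 to 3905 in experiments 1 and 2 and 654 and 632 in experiment 3 (-2.22, 4.66-fold). The dimmest had 1135 to 2298 against 335 and 310 (-2.42, 5.34-fold). The direction was thus the same in all 4, while the size ran from 1.95-fold to 5.34-fold and was larger the dimmer the probe set. The reason for the differing sizes was not tested.

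In upper glycolysis 9 of 10 listed genes were measured, with 1 lower (6.19% of all genes) and 1 higher (2.83%) in experiment 3. The phosphofructokinase subunits, which form the tetramer of the main committed step, did not move together. Pfkp, the platelet type, had 717 and 778 in experiment 1, 881 and 835 in experiment 2, and 527 and 493 in experiment 3 (uninduced, then GemKD). Its log2 difference was -0.64, or 1.55-fold lower, just past the limit. Pfkm, the muscle type, went the other way, with 420, 405, 456 and 386 in experiments 1 and 2 and 650 and 591 in experiment 3. Its difference of 0.56, or 1.47-fold, fell just short of the limit although both arrays lay above the other 4. Pfkl, the liver type, had 3535 and 3511 in experiment 3 and 3603 to 4272 in the others (-0.21). For Pfkp the other probe sets had -0.46 and -0.58, lower but short of the limit.

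Pfkfb3 makes fructose 2,6-bisphosphate, the strongest activator of phosphofructokinase. It had 45.2, 47.1, 50.2 and 54.3 in experiments 1 and 2 and 120 and 114 in experiment 3, a log2 difference of 1.03 or 2.04-fold. These are dim signals, at which the added 16 understates the change, and the plain ratio of mean signals was 237.8%. A second probe set of Pfkfb3 had 0.44 and was not apart, with 87 and 60 in the arms of experiment 3 and 39 to 57 elsewhere.

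The hexokinases and aldolases, which trap glucose and split its bisphosphate, were slightly lower in experiment 3 without reaching the limit. Hk1 had 319 and 361 against 409 to 437 (-0.30), and Hk2 had 2901 and 3052 against 3229 to 3407 (-0.15). Aldoa had 8599 and 7836 against 8802 to 9056 (-0.13), with all 5 probe sets between -0.31 and -0.11. Aldoc, the brain-type aldolase, had 657 and 685 against 837 to 884 (-0.35, 1.27-fold). All 4 of these had both arrays of experiment 3 below the other 4, as did 31% of all genes. Tpi1, triose phosphate isomerase, did not, with 7207 and 7062 inside the range of 6996 to 7512 (-0.01).

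**Figure D2:**
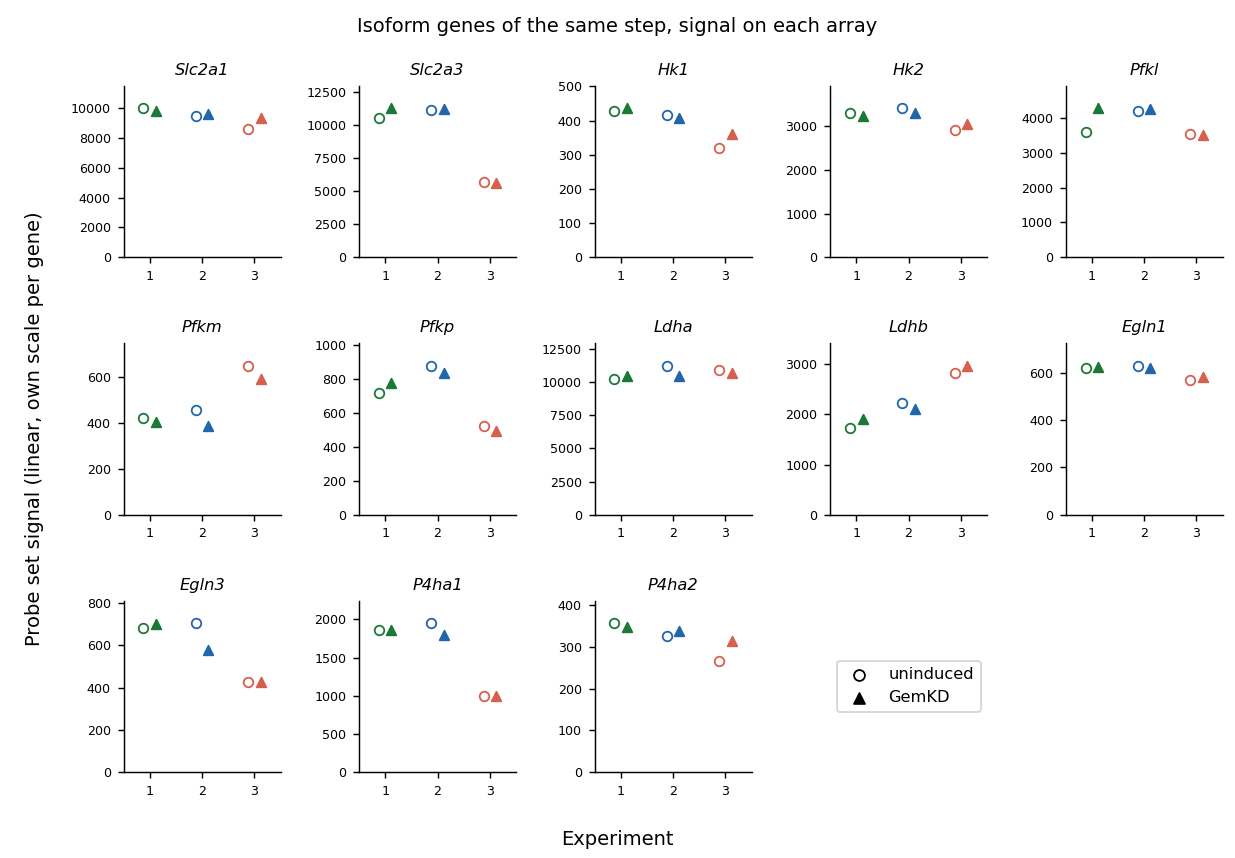
Probe set signal (y axis, linear, starting at 0, own scale per gene) by experiment (x axis) for genes that encode isoforms of the same step; open circles are uninduced and filled triangles GemKD. Slc2a3, Pfkp, Egln3 and P4ha1 sit lower in experiment 3, Pfkm and Ldhb sit higher, and Slc2a1, Ldha and Egln1 lie near the other experiments.

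In lower glycolysis none of the 6 measured genes was apart, against 9.02% of all genes, a share at which none in 6 says little. Pgam1 had 7818 and 8100 in experiment 3 against 7639 to 8306 (difference 0.00), and Pkm, pyruvate kinase, had 9268 and 9305 against 8967 to 9407 (0.02). Pgk1, phosphoglycerate kinase, was lower by a small step in both arrays, with 9581 and 9178 against 10533 to 11380 (-0.20), and its 3 probe sets gave -0.20, -0.19 and -0.18. The enolases of muscle and neurons were higher in both arrays of experiment 3. Eno3 had 260 and 258 against 184 to 205 (0.39, 1.31-fold), and Eno2 had 85.7 and 81.9 against 65.3 to 73.8 (0.23). Pgam2, the muscle mutase, was dim, with 18.7 and 34.1 against 35.2 to 39.0 (-0.35), and the first of these signals lies below the filter limit. Without that array the difference was -0.08.

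Among the enzymes and carriers of lactate and pyruvate none of 6 was apart (9.02% of all genes), which again says little. The lactate dehydrogenase subunits differed from each other. Ldha, the subunit known to rise in low oxygen, had 10903 and 10680 in experiment 3 within 10190 to 11220 (0.03). Ldhb, the heart-type subunit, had 2817 and 2970 against 1734 to 2222 (0.54, 1.46-fold), with 0.35 to 0.47 in its other 3 probe sets. Pdk1 and Pdk3, kinases that switch off pyruvate dehydrogenase, had differences of 0.12 each. Slc16a3 (MCT4), the lactate exporter, had 2325 and 2171 against 1632 to 2094 (0.27), and Slc16a1 (MCT1) had 2581 and 2639 against 2344 to 2613 (0.07).

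Of the 10 measured hypoxia response genes 3 were lower in experiment 3 (6.19% of all genes) and 0 were higher (2.83%), and 1 of the 3, Vegfa, depended on a single array. P4ha1, the catalytic subunit of collagen prolyl 4-hydroxylase, had 1854 and 1863 in experiment 1, 1952 and 1789 in experiment 2, and 1002 and 1000 in experiment 3. Both arms of experiment 3 thus stood at 53.7% of the mean of the others, 1864 ± 67.1 (SD, n = 4), a log2 difference of -0.89. Its second probe set had -0.97. P4ha2, the paralogous subunit, had 267 and 312 against 327 to 357 (-0.23).

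Egln3, the prolyl hydroxylase that is itself induced by low oxygen, had 683 and 701 in experiment 1, 706 and 578 in experiment 2, and 428 and 426 in experiment 3 (-0.62, 1.54-fold), and -1.04 in its second probe set. Egln1, the main oxygen sensor of the family, had 569 and 582 against 618 to 630 (-0.11). Vegfa, the vascular endothelial growth factor, had 251 and 454 in the uninduced and GemKD arrays of experiment 3 against 549 to 635 (-0.76, 1.69-fold). The arms of experiment 3 differed by more than that (0.82), so the difference rests largely on the uninduced array, and without it Vegfa had -0.35 and was no longer apart. Its second probe set, with 185 and 192 against 196 to 208, had -0.09.

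The other hypoxia response genes were closer to experiments 1 and 2. Bnip3, a mitophagy receptor, had 3298 and 3186 against 3730 to 4171 (-0.25), and Higd1a, a respiratory chain assembly factor, had 3885 and 3968 against 3805 to 4116 (0.01). Ndrg1 had 91.0 and 91.6 against 70.4 to 90.7 (0.19), but 4 dimmer probe sets had -0.49 to -0.11. Car9, carbonic anhydrase IX, and Ankrd37 were dim on every array, Car9 between 36.5 and 65.8 (0.31) and Ankrd37 between 56.7 and 81.6 (0.13), and their experiments overlapped.

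**Figure D3:**
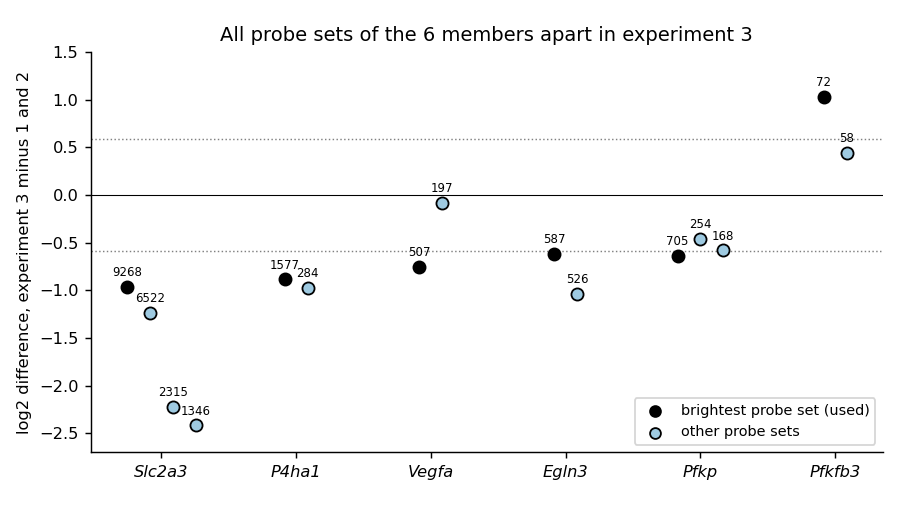
Log2 difference of experiment 3 from experiments 1 and 2 (y axis) for every probe set above the filter of the 6 members that were apart; black is the brightest probe set, blue the others, the number is the mean signal, and dotted lines mark 1.5-fold. All probe sets of a gene lie on the same side of 0, but those of Slc2a3 run from -0.96 to -2.42 and the second set of Vegfa lies at -0.09.

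Across the 18 members with several probe sets above the filter, the direction was the same in all sets for 12 and the call was the same for 15. Pfkp, Pfkfb3 and Vegfa were the 3 whose call differed. Of the 6 whose direction differed (Higd1a, Ndrg1, Pdk1, Pfkl, Slc16a1 and Tpi1), none was apart by any set.

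The second comparison asks whether knockdown of Geminin changed these genes. No member passed in limma at an adjusted p under 0.05, with or without the experiment as a block, where 0.00705% (1) and 0.0352% (5) of all genes passed. The fit without the block did not call Gmnn itself (log2 -1.44, limma adjusted p = 0.338), while the blocked fit did (adjusted p = 2.76e-06), so a lack of calls without the block says little. No member had an unadjusted p under 0.05 without the block and 2 did with it, Vegfa and Pdk1, against 123 and 675 of all genes. The median log2 fold change of the members was 0.01, and 0.002 over all genes, with 18 members above and 15 below 0. The median size of the change was 0.04, against 0.06 over all genes and 0.04 over the brighter genes. In no member were the 3 GemKD arrays all above or all below the 3 controls, against 4.33% of all genes (2.09% higher and 2.24% lower). With the block, the 95% interval lay within 1.5-fold in either direction for 32 of 33 members, with a median half-width of 0.15.

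Within single experiments the counts of members were near the shares over all genes. No member passed 1.5-fold in experiment 1 (1.69% of all genes, 0.853% higher and 0.839% lower) or in experiment 2 (2.38%, 1.04% higher and 1.35% lower). In experiment 3 it was 1, Vegfa, which was higher (4.12% of all genes, 2.05% higher and 2.07% lower). These counts use the brightest probe set of each gene. Dimmer sets of Slc2a3 passed the limit in experiment 2 (0.96 and 1.01), as did dim sets of Ndrg1 (-0.97) and Slc16a1 (0.90) in experiment 3. The median ratio of the members was 0.03, -0.06 and 0.01 on the log2 scale in experiments 1, 2 and 3. Car9 and Ndrg1 were higher in all 3 experiments (2 of 33, 6.06%, against 12.2% of all genes) and Pfkm and Eno3 were lower in all 3 (6.06% against 11.7%). None moved the same way by 1.2-fold in every experiment.

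**Figure D4:**
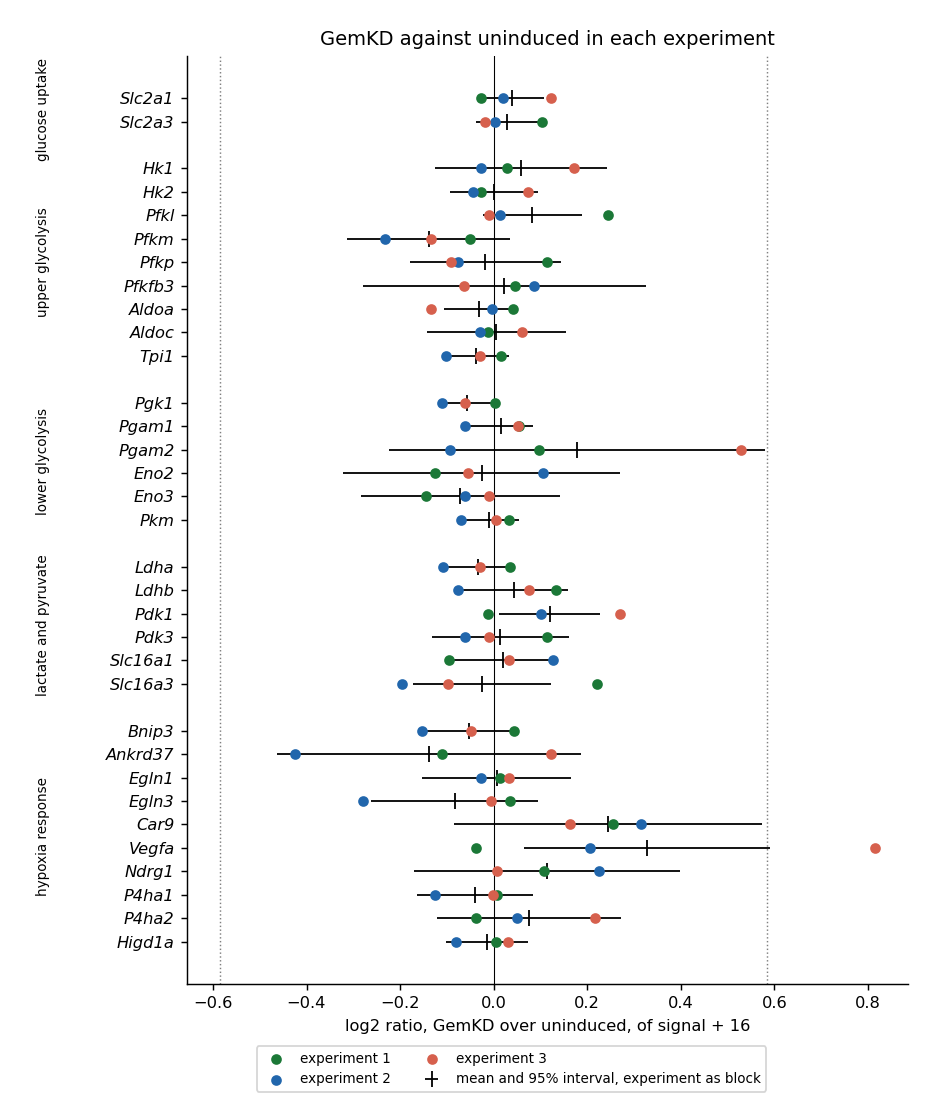
Log2 ratio of GemKD over uninduced (x axis) for each member in experiments 1, 2 and 3 (coloured points) with the mean and its 95% interval from the limma fit with the experiment as a block; dotted lines mark 1.5-fold. The points lie around 0 for nearly every member, and the point of Vegfa in experiment 3 lies at 0.82.

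Vegfa had the largest change, from 461 ± 182.6 in the controls to 552 ± 91.7 in GemKD (mean and SD of 3 arrays each). The limma estimate was 0.33 on the log2 scale, with an SE of 0.31 and an adjusted p = 0.9998. In the blocked limma fit the 95% interval was 0.07 to 0.59 and the adjusted p = 0.914. The ratios were -0.04, 0.21 and 0.82 in experiments 1, 2 and 3, and the groups overlapped. Without the control array of experiment 3 the fold change was -0.05. Without experiment 1 the blocked fit called it (0.51, limma adjusted p = 0.00923), and without experiment 3 it had 0.08 (adjusted p = 0.789). The second probe set of Vegfa had 0.06, 0.05 and 0.05.

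The next changes were in dim genes or small. Car9 went from 46.3 ± 10.3 to 57.5 ± 9.87 (log2 0.24, blocked interval -0.09 to 0.57), with ratios of 0.25, 0.31 and 0.16. Pgam2 went from 30.9 ± 10.7 to 36.1 ± 2.57 (0.18, -0.22 to 0.58), of which experiment 3 gave 0.53. Without the control array of experiment 3 it had -0.02, and in the blocked fit without that experiment 0.002. Pfkm went from 508.8 ± 123.4 to 460.7 ± 112.9 (-0.14, -0.31 to 0.04), and the SD within each group reflects the higher signal in experiment 3. Ankrd37 went from 71.6 ± 8.86 to 63.9 ± 10.9 (-0.14, -0.46 to 0.19). Pdk1 went from 3424 ± 37.3 to 3733 ± 371.6 (0.12, 0.01 to 0.23), with ratios of -0.01, 0.10 and 0.27, but its next probe sets had -0.04 and -0.09. None of these 5 passed (limma adjusted p = 0.9998 each without the block and 0.997 with it).

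For the enzymes at high signal the intervals were narrow. Ldha had a log2 fold change of -0.03, Pkm -0.01, Pgam1 0.01, Tpi1 -0.04 and Pgk1 -0.06, and the carriers Slc2a1 and Slc2a3 had 0.04 and 0.03. The dimmer probe sets of Slc2a3 gave other values. The dimmest had 1774 and 2223 (uninduced, GemKD) in experiment 1, 1135 and 2298 in experiment 2, and 335 and 310 in experiment 3, which are ratios of 0.32, 1.01 and -0.11. The third set had 0.32, 0.96 and -0.05. Both were described after their values were seen and have no test here, and the brighter pair of sets had ratios between -0.05 and 0.10.

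The hairpins were compared by the difference between the GemKD effect of shRNAmir #9 (experiment 2) and that of shRNAmir #11 (experiments 1 and 3). No member differed at an adjusted p under 0.05 in limma, and 0 had an unadjusted p under 0.05, while 46 of all genes (0.324%) were called. The arm of shRNAmir #9 is 1 experiment on its own line, so hairpin, line and experiment cannot be told apart. The calls describe how experiment 2 differed from the others, and the count of 0 members says little with 1 residual degree of freedom.

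Other genes of the same pathways, from lists written for context, were read by the same rules. None of them passed in the knockdown comparison in limma with or without the block. In experiment 3, the list of other hypoxia targets had 5 of 28 tested genes lower (6.19% of all genes) and 1 higher (2.83%), with a median difference of -0.20. Bhlhe40, a transcriptional repressor, had 200 to 212 in experiments 1 and 2 and 91.0 and 95.1 in experiment 3 (-1.01). Plod1, a lysyl hydroxylase of collagen, had -0.84, Tmem45a -0.75, the secreted glycoprotein Stc2 -0.65 and glycogen synthase Gys1 -0.61. Dimmer probe sets of Stc2 had -0.85 and -0.35, the latter not apart. Lox was not apart by its brightest set (-0.38) but was lower by a dimmer one (-1.44). Kdm3a (-0.57), a histone demethylase, and Ddit4 (-0.52), an inhibitor of mTORC1 signalling, lay just short of the limit. On the higher side Angptl4 (0.55) also lay just short of it, and Hmox1 had 0.43. Rragd, a GTPase of nutrient sensing, was higher (0.73). Stc2 also had the largest GemKD change of this list, -0.31 (blocked adjusted p = 0.537), with -0.22, -0.41 and -0.31 in the 3 experiments.

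Of 19 genes of the HIF pathway, 1 was lower (6.19% of all genes) and 1 higher (2.83%), with a median of -0.01. Epas1, which encodes the factor HIF-2 alpha, had 2627 and 2732 in experiment 1, 2494 and 2480 in experiment 2, and 1180 and 1315 in experiment 3 (-1.04), and -1.21 in a second probe set. Hif1a, the gene of HIF-1 alpha, had 3645 and 4346 in experiment 3 against 3564 to 3948 (0.08), within 0.09 of 0 in all 4 probe sets. Rbx1, a subunit of the ubiquitin ligase that contains Vhl, had 0.74 at signals of 73.4 to 188. Arnt, the partner of both alpha subunits, had -0.29, its paralogue Arnt2 0.37 and Myc 0.36, and Vhl and Egln2 had -0.03 and 0.00. The array measures RNA, and the alpha subunits are known to be set by protein breakdown.

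**Figure D5:**
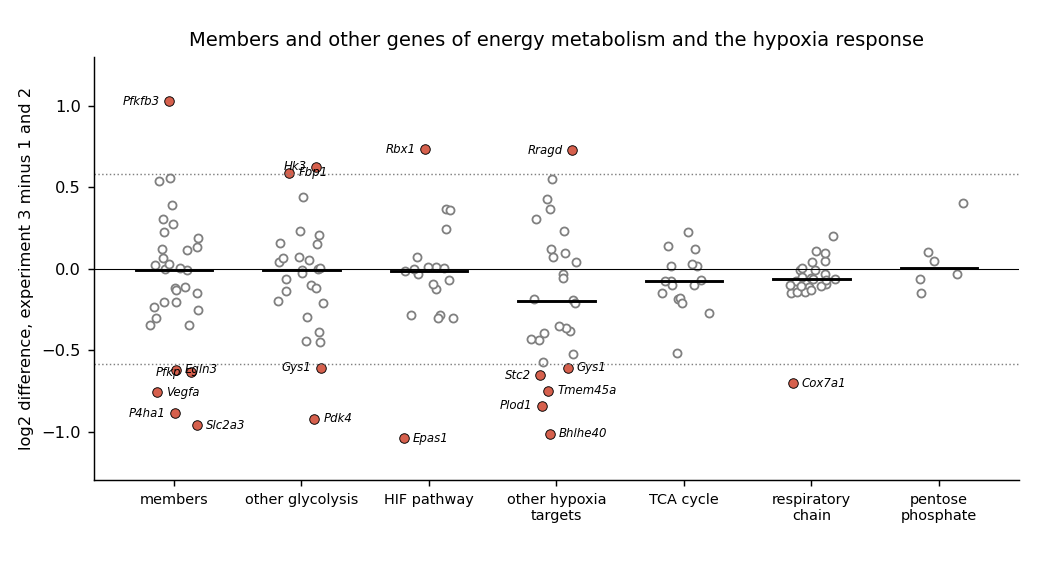
Log2 difference of experiment 3 from experiments 1 and 2 (y axis) for the members and the tested genes of 6 context lists (x axis); red points with names were apart, open points were not, bars are medians and dotted lines 1.5-fold. The other hypoxia targets have a median of -0.20, while TCA cycle, respiratory chain and pentose phosphate genes cluster near 0.

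The lists of neighbouring metabolism lay near 0. Of 27 other glycolysis genes 2 were higher (2.83% of all genes) and 2 lower (6.19%) in experiment 3 (median -0.01). The lower ones were Gys1, which is in both lists and already counted among the hypoxia targets, and the pyruvate dehydrogenase kinase Pdk4 (-0.92, 34.3 and 35.2 against a mean of 80.9), and the higher ones were Hk3 and Fbp1, both dim. None of 17 TCA cycle genes was apart (median -0.08), nor any of 6 pentose phosphate genes (0.01), where 9.02% of all genes were. Of 25 respiratory chain genes 1 was lower (6.19% of all genes), Cox7a1, the muscle-type subunit of cytochrome oxidase (-0.70), around a median of -0.06.

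Markers of cell state moved with experiment 3 on the same arrays. They were counted by the same rule, by which 6.19% of all genes were lower and 2.83% higher. The summed signal of 6 neural markers was 6129 to 6549 in experiment 3 and 9306 to 9679 in the others, with Sox1, Pax6 and Zic1 lower. Sox1, an early marker of neurectoderm, had 2108 to 2443 in experiments 1 and 2 and 523 and 577 in experiment 3. Sox1 was thus present on every array but weaker in experiment 3, while Sox2, Nes and Hes5 were not apart. The sum of 6 pluripotency markers was 10070 to 10380 against 13850 to 15820. Nanog, Klf4 and Zfp42 were lower, and Pou5f1, Esrrb and Tbx3 were not apart. That of 4 primed epiblast markers was 20340 to 20690 against 13520 to 15670, with Fgf5, Otx2 and Pou3f1 higher and Dnmt3b not apart. Contractile and mesenchymal markers summed to 2568 to 2594 against 1523 to 1686, with 4 of 7 higher (Tagln, Myl9, Cnn1 and Thy1) and Col1a2 lower, and 7 skeletal and cardiac muscle markers to 291 to 361 against 171 to 199, with Actc1 and Acta1 higher. These muscle markers, the endoderm markers (249 to 255 against 194 to 296) and the mesoderm markers (601 to 653 against 642 to 791) were weak on all arrays. The mesoderm markers Mixl1 and Kdr and the skeletal muscle marker Myog were below the filter limit on each array. The part of these markers in the differences of the members was not tested, and in bulk RNA fewer cells of a type and less RNA per cell cannot be told apart. The labels give no oxygen level or cell density for any culture.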

How the data were processed

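The labels name total RNA of the 6 cultures, a biotin label and hybridisation to Affymetrix GeneChips. The table deposited by the authors holds 1 linear intensity for each of 45037 probe sets on each array. Which software made these values, and with what background correction and scaling, is not given here. Medians of the arrays lay between 59.3 and 60.9, so no further normalization was applied, and 6 arrays limit the precision. Gene symbols came from the platform annotation, in which 34945 probe sets had 1 symbol, 932 several and 9160 none, and Entrez identifiers in RefSeq GRCm38.p6 changed 0 of them.

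Signals were put on the scale log2(signal + 16). A gene was tested where the mean of its brightest probe set exceeded the percentile 30 of all sets. The knockdown comparison used limma 3.58.1 under R 4.3.3 (lmFit and eBayes, trend on mean signal), with two-sided p-values adjusted by Benjamini-Hochberg over 14185 genes and no block. Arrays of the same experiment form a pair by design. Their deviations around the group means correlated at 0.489, 0.472 and 0.714 in experiments 1, 2 and 3. This correlation was not computed between arrays of different experiments, so these values do not show how much is particular to a pair. Nothing in the labels says how separate the cultures were, so p-values measure only the spread between these samples, which may be technical. The fits were run on simulated data, where recovery of planted changes was required only of the blocked fit and of the rule for experiment 3. Those planted changes were larger than the change of any member in the same comparison, by brightest probe sets. For the rule, the differences between experiments had first been removed from the simulated data. The outcome therefore says little about calls of the sizes given here. Plots used matplotlib 3.10.9.

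Every measured member was given, also Tpi1, Pgk1, Pkm, Bnip3, Higd1a and Ndrg1, which met no rule for detail. Genes given in detail by rule were the 14 members with the largest difference of experiment 3 and the 6 with the largest GemKD change. Genes for isoforms of these enzymes went with them. Of each context list up to 4 and 2 genes were eligible on the same grounds. Kdm3a, Ddit4, Angptl4, Hmox1, Lox, Hif1a, Vhl, Egln2 and the dimmer probe sets were named after their values were seen. Members and lists were chosen with earlier results of these data known. Alternatives were quantile normalization, other pseudocounts, filters and fold limits, the mean of all probe sets, the block, and leaving out arrays.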

Additional observations from a re-analysis of the deposited data

How the results depend on the processing

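The count of members called in the knockdown comparison was 0, also under every alternative that kept all arrays. It was 0 to 1 when arrays or experiments were left out, the 1 being Vegfa with the experiment as a block and without experiment 1. Over all genes the count of 1 became 5 with the block (the pairing of arrays by experiment) and 0 without the intensity trend. It was 0 to 1 without single arrays, and with the block 75, 28 and 28 without experiment 1, 2 or 3. The block changed no call of a member. In experiment 3 alone 2 members passed 1.5-fold with a pseudocount of 1, against 1.

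The 5 members lower and 1 higher in experiment 3 became 3 and 2 with quantile normalization, as Pfkp (-0.57) and Egln3 (-0.55) fell short and Pfkm (0.62) passed. With the mean of all probe sets 3 were lower, as Vegfa (-0.42) and Pfkp (-0.56) fell short. Against experiment 1 alone 2 were higher, with Ldhb (0.67), and Pfkp (-0.54) fell short. At a 2-fold limit 0 were lower, and with a pseudocount of 64 Egln3 (-0.57) fell short. A limma contrast of the experiments, whose spread is that between the arms of an experiment and not between experiments, called 13 members lower and 5 higher. Without single arrays 4 to 6 were lower and 1 to 3 higher: Pfkm and Ldhb (0.60 each) passed without the control of experiment 2, Pfkm (0.62) and Pgam2 (-0.61) passed without the GemKD array of experiment 3, and Vegfa fell short without its control. Over all genes the count of 1279 became 731 with a pseudocount of 64, 348 at 2-fold and 4822 in the limma contrast, and 1279 to 1645 without single arrays. The direction of each of the 6 genes was kept under every alternative run. The hairpin comparison called 3 genes without a filter, against 46, and 0 members in both; the cause was not tested.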
